A study of Arabidopsis thaliana with 4 samples.

Results

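Co-chaperones and cofactors of the cytosolic HSP70 and HSP90 machinery, and the heat-induced transcriptional coactivator MBF1C, were followed in whole seedlings of Arabidopsis thaliana. The group held 10 genes of the 31346 in the deposited table, picked by locus code: ROF1 (AT3G25230), ROF2 (AT5G48570), HOP1 (AT1G12270), HOP2 (AT1G62740), HOP3 (AT4G12400), FES1A (AT3G09350), BAG6 (AT2G46240), ATJ2 (AT5G22060), ATJ3 (AT3G44110) and MBF1C (AT3G24500). Poly(A) RNA was sequenced from a line that overexpresses ClpD in the WT background (ClpD-OE, coded #5, 2 libraries) and from wild type (WT, 2 libraries), all from seedlings 6 d old with no treatment named in the labels. ClpD is a nuclear-encoded chaperone of the chloroplast Clp protease. The overexpression is described as constitutive and its promoter was not named in the labels. Both ClpD-OE libraries carry the code of a single line, so effects of ClpD and of other traits of that line cannot be told apart. The comparison addresses whether seedlings with excess ClpD, in which the series reports accumulated ClpD precursor protein, carry a heat-shock-like transcript pattern. Nothing in the labels says that replicates were separate cultures, so p-values measure the spread between these libraries, which may be technical.

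Heat shock proteins do not work alone. HSP70 binds unfolded stretches of client proteins through a cycle of ATP hydrolysis that J-domain proteins start and nucleotide exchange factors end, and HOP proteins hold HSP70 and HSP90 together so that a client can pass from one to the other. FKBP-type prolyl isomerases with TPR repeats, such as ROF1 and ROF2, dock on HSP90, and in Arabidopsis they take part in the control of the heat stress factor HSFA2. Several of these genes are transcribed at higher levels when seedlings are heated, while others serve growing cells at normal temperature.

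The libraries held 23294451 and 22764333 counts in ClpD-OE replicates 1 and 2, and 20800842 and 21896988 counts in WT replicates 1 and 2, and 18940 genes were tested. CLPD transcripts were at 1668 and 1870 normalized CPM (counts scaled to library size) in ClpD-OE, against 151 and 147 CPM in WT (log2 fold change 3.57, edgeR adjusted p = 0.00283), so each library matched its label. Shoot marker genes (4 of 4 with counts in every library) summed to 35460 and 35354 CPM in ClpD-OE, against 52744 and 51290 CPM in WT. These sums came mostly from RBCS1A and LHCB1.3. All 4 markers, with LHCB2.1 and GLK1, were lower at an edgeR adjusted p between 0.0188 and 0.0378. Of all tested genes, 3.91% were lower at an adjusted p under 0.05. The part of these markers in the results was not tested. Root markers summed to 1255 and 1288 CPM in ClpD-OE, against 1223 and 1340 CPM in WT, nearly all from PYK10, while the root hair genes COBL9 and EXPA7 had at most 4 and 2 counts in any library. Flower and seed markers stayed under 1 CPM in sum. In whole seedlings, fewer cells of a type and less RNA per cell cannot be told apart. WT replicate 1 was above WT replicate 2 in most of the 10 genes, and fold changes that move with either WT library are given with and without it. Such a fit leaves WT with 1 library, which is assumed to vary like the ClpD-OE pair, so its p-value sets that library against ClpD-OE and is no replicated test between genotypes.

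None of the 10 genes passed the test between genotypes. With genes called where the Benjamini-Hochberg adjusted p of edgeR's quasi-likelihood test was under 0.05, 0 of 10 were called, where 8.19% of all tested genes were called, and 1 of 10 had an unadjusted p under 0.05, where 28.2% of tested genes did. DESeq2 also called 0 of 10, with 0 of 10 at an unadjusted p under 0.05, where it called 11.8% of tested genes and 21.6% had such an unadjusted p. In a set of 10 genes a count of 0 is near that background. In normalized CPM both ClpD-OE libraries lay on the same side of both WT libraries in 1 of 10 genes (HOP1), where 59.9% of tested genes were separate in this way. On the authors' FPKM scale ROF1, HOP2 and ATJ3 were separate as well, and the share of all genes on that scale was not computed. All 10 passed the filter on low counts. Their median log2 fold change (ClpD-OE over WT) was -0.016, with 5 above and 5 below 0, beside a median of 0.0011 over all tested genes. In the authors' deposited table all 10 likewise had an adjusted p above 0.05, between 0.292 for HOP1 and 0.985 for ROF2. The largest gap between genotype means was that of MBF1C and the most even gap that of HOP1.

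**Figure D1:**
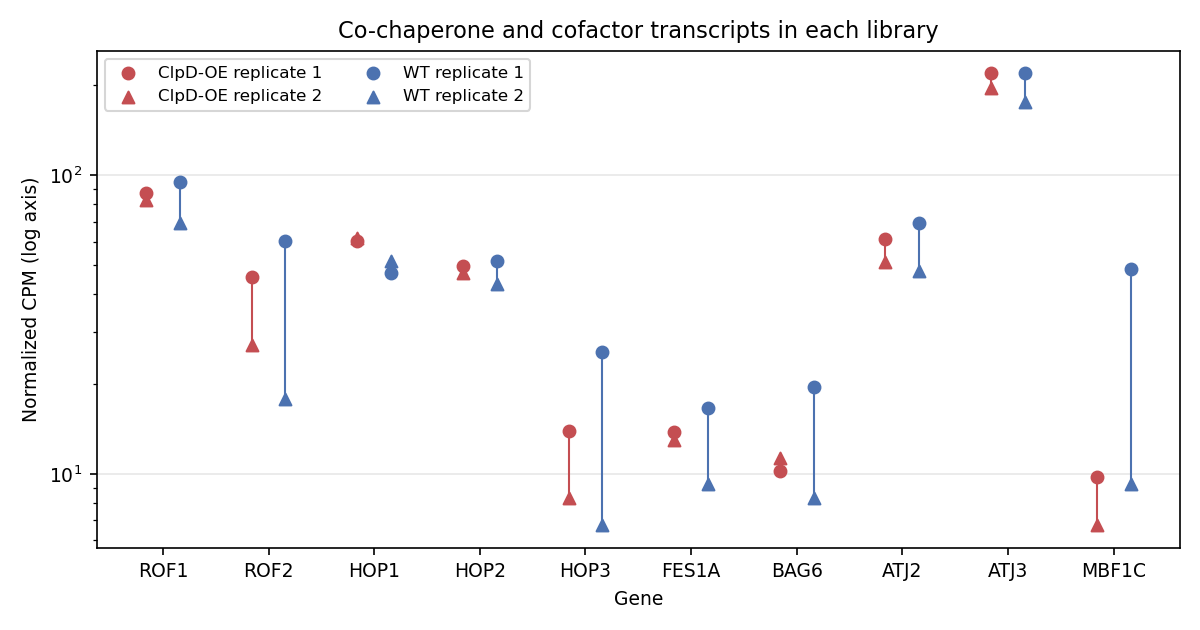
Normalized CPM (log axis) of each of the 10 genes in each library, with ClpD-OE left of WT, circles for replicate 1, triangles for replicate 2, and a line joining the libraries of a genotype. The WT lines of MBF1C, HOP3 and ROF2 are long and enclose or reach the ClpD-OE values, and HOP1 is the gene whose genotypes are separate.

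Among the HSP90 partners, HOP1 is one of the Arabidopsis genes for the HSP70-HSP90 organizing protein. It had 60.4 and 61.8 CPM in ClpD-OE, against 47.2 and 51.7 CPM in WT. Both ClpD-OE libraries lay above both WT libraries, as they did for 30.5% of tested genes, with 29.5% on the lower side. The log2 fold change was 0.30 (95% interval 0.083 to 0.53, edgeR adjusted p = 0.0988), which is 1.24-fold. It kept its direction without WT replicate 1 (0.24, edgeR adjusted p = 0.269) and without WT replicate 2 (0.37, edgeR adjusted p = 0.0755). With library totals in place of TMM scaling the log2 fold change was 0.53 and passed (edgeR adjusted p = 0.0304). That scaling moved the median of all tested genes by 0.22 on the log2 scale, and it called 14.2% of tested genes higher (17.3% in either direction).

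HOP2, the close relative of HOP1, had 49.8 and 46.9 CPM in ClpD-OE, against 51.5 and 43.3 CPM in WT. The WT values enclosed those of ClpD-OE, and the log2 fold change was 0.029 (95% interval -0.26 to 0.32, edgeR adjusted p = 0.894). HOP3, the family member known for its rise in heat, had 13.9 and 8.32 CPM in ClpD-OE, against 25.7 and 6.78 CPM in WT. Its highest and its lowest library were both WT. HOP3 had a log2 fold change of -0.54 (95% interval -2.12 to 1.03, edgeR adjusted p = 0.619). It was 0.71 without WT replicate 1 and -1.21 without WT replicate 2 (edgeR adjusted p = 0.354 and 0.0701), so its direction depended on which WT library was used.

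Within the HOP family, the authors' FPKM values, which are scaled by transcript length and so allow levels of different genes to be set side by side, show the mix of family members. HOP3 made up 9.24% and 5.92% of the summed HOP FPKM in ClpD-OE, against 17.8% and 5.63% in WT. HOP2 stayed between 40.1% and 40.6% in ClpD-OE and at 42.5% and 42.6% in WT. HOP1 held the rest, 50.2% and 53.9% in ClpD-OE, against 39.7% and 51.8% in WT. The share of HOP1 was thus lowest, and that of HOP3 highest, in WT replicate 1. Coding sequences of HOP1 and HOP2 are 82.5% identical in the RefSeq annotation, with a longest identical run of 38 bases. Whether reads of one gene were counted for the other was not tested.

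ROF1 and ROF2 encode related FKBP-type isomerases that bind HSP90. ROF1 had 87.3 and 82.9 CPM in ClpD-OE, against 94.7 and 69.3 CPM in WT, with the WT values on both sides of the ClpD-OE values (log2 fold change 0.054, 95% interval -0.35 to 0.46, edgeR adjusted p = 0.858). ROF2 had 45.6 and 27.0 CPM in ClpD-OE, against 60.1 and 17.8 CPM in WT. Here too WT replicate 1 was the highest and WT replicate 2 the lowest library. ROF2 had a log2 fold change of -0.098 (95% interval -1.56 to 1.36, edgeR adjusted p = 0.934), with 1.03 without WT replicate 1 and -0.73 without WT replicate 2 (edgeR adjusted p = 0.204 and 0.198). ROF2 took 33.5% and 23.9% of the summed ROF FPKM in ClpD-OE, against 37.7% and 19.8% in WT. The coding sequences of ROF1 and ROF2 are 75.8% identical.

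Of the HSP70 cofactors, ATJ3 and ATJ2 encode J-domain proteins of the cytosol that are lipid-modified by farnesylation. ATJ3 was the most abundant of the 10 transcripts per length, at 121 and 110 FPKM in ClpD-OE, against 102 and 85.2 FPKM in WT. On the normalized CPM scale ATJ3 had 219 and 196 in ClpD-OE, against 219 and 176 in WT, and the groups overlapped. FPKM, which the authors computed without TMM scaling, thus separated the genotypes for ATJ3 where normalized CPM did not. The same held for ROF1 and for HOP2, the latter at 26.9 and 25.7 FPKM in ClpD-OE, against 23.5 and 20.6 FPKM in WT. ATJ3 had a log2 fold change of 0.074 (95% interval -0.26 to 0.41, edgeR adjusted p = 0.758). ATJ2 had 61.3 and 51.1 CPM in ClpD-OE, against 69.4 and 47.9 CPM in WT, with a log2 fold change of -0.061 (95% interval -0.56 to 0.44, edgeR adjusted p = 0.872). ATJ3 held between 76.4% and 77.6% of the summed FPKM of the pair in ClpD-OE, and 74.0% and 76.8% in WT. Their coding sequences are 85.5% identical, the closest pair compared, with a longest identical run of 44 bases.

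FES1A encodes a protein related to yeast Fes1, an HSP70 nucleotide exchange factor, and in Arabidopsis it keeps cytosolic HSP70 from being degraded in heat. It had 13.9 and 13.0 CPM in ClpD-OE, against 16.6 and 9.30 CPM in WT. The ClpD-OE libraries lay close together between the WT libraries. Its log2 fold change was 0.051 (95% interval -0.65 to 0.76, edgeR adjusted p = 0.928), and it was 0.53 without WT replicate 1 and -0.31 without WT replicate 2 (edgeR adjusted p = 0.154 and 0.198).

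BAG6 encodes a calmodulin-binding protein with a BAG domain, the fold through which BAG proteins contact HSP70. It had the lowest level per length of the 10 genes, with 2.91 and 3.24 FPKM in ClpD-OE, against 4.67 and 2.07 FPKM in WT. In normalized CPM it had 10.3 and 11.3 in ClpD-OE, against 19.5 and 8.33 in WT, again with WT replicate 1 highest and WT replicate 2 lowest. The log2 fold change of BAG6 was -0.36 (95% interval -1.35 to 0.63, edgeR adjusted p = 0.593). It was 0.37 without WT replicate 1 (edgeR adjusted p = 0.304), and -0.86 against WT replicate 1 alone (edgeR adjusted p = 0.0263, with the spread taken from the ClpD-OE pair).

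MBF1C encodes a transcriptional coactivator that accumulates in heat and is needed for basal thermotolerance. Its counts were 245 and 167 in ClpD-OE, against 918 and 191 in WT. This corresponds to 9.79 and 6.74 CPM in ClpD-OE, against 48.7 and 9.25 CPM in WT, so that WT replicate 1 stood alone and the other 3 libraries lay between 6.74 and 9.79 CPM. The mean was 8.27 ± 2.16 CPM in ClpD-OE, against 29.0 ± 27.9 CPM in WT (SD, n = 2 each). The log2 fold change of MBF1C was -1.80 (95% interval -3.72 to 0.11, edgeR adjusted p = 0.196). Without WT replicate 1 it was -0.16 (edgeR adjusted p = 0.799), and against WT replicate 1 alone it was -2.56 (edgeR adjusted p = 0.00846, with the spread taken from the ClpD-OE pair). Its large mean difference thus rested on WT replicate 1. Set against WT replicate 1 alone, BAG6 and MBF1C were 2 of 10 genes under the threshold on the lower side, where 8.25% of tested genes were (14.3% in either direction), and this count rests on that single library. Without WT replicate 1, 0 of 10 were called, where 2.71% of tested genes were.

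**Figure D2:**
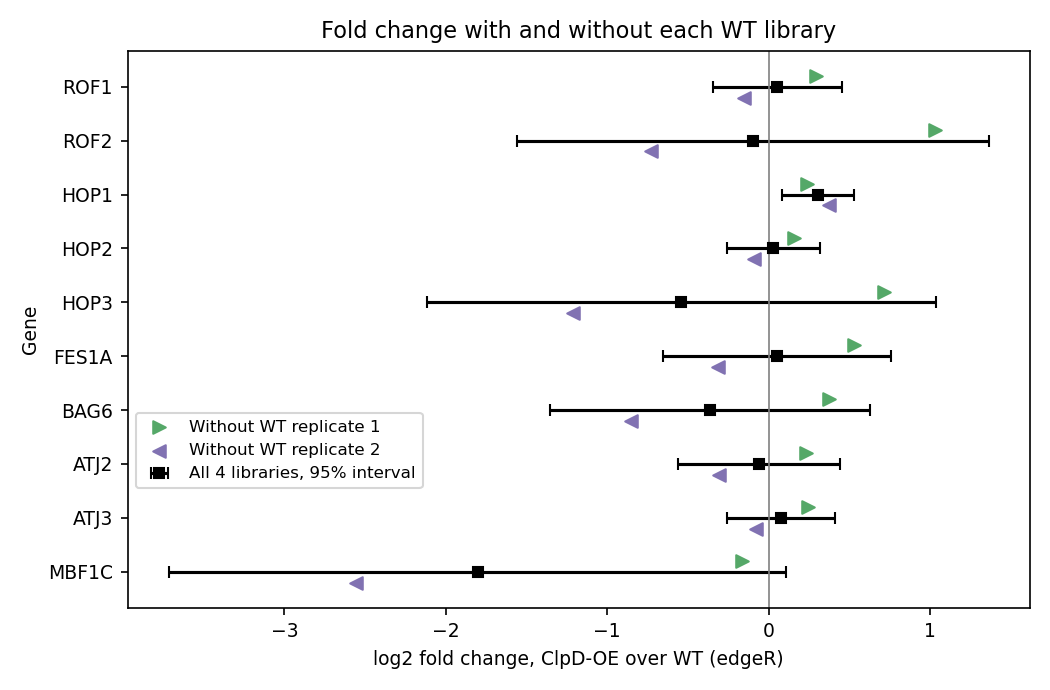
The log2 fold change of ClpD-OE over WT for each gene by edgeR, with squares and 95% intervals for all 4 libraries and triangles for fits that leave out WT replicate 1 (pointing right) or WT replicate 2 (pointing left). The triangles fall on opposite sides of 0 for ROF1, ROF2, HOP2, HOP3, FES1A, BAG6, ATJ2 and ATJ3, and on the same side for HOP1 and MBF1C.

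By level per length, the 10 genes spanned a wide range. ATJ3 came first, between 109.8 and 121 FPKM in ClpD-OE and between 85.2 and 102 FPKM in WT, apart from every other gene of the group. ROF1 followed, at 44.0 and 42.3 FPKM in ClpD-OE, against 40.7 and 30.6 FPKM in WT. ATJ2 (25.7 to 37.5 FPKM over the 4 libraries), HOP1 (22.0 to 34.6 FPKM) and HOP2 (20.6 to 26.9 FPKM) formed a middle group whose ranges overlapped. ROF2 ranged from 7.57 to 24.6 FPKM. FES1A (5.59 to 9.62 FPKM), HOP3 (2.72 to 9.86 FPKM) and BAG6 (2.07 to 4.67 FPKM) were lowest, and neighbours in that order overlapped. MBF1C was at 9.61 and 6.71 FPKM in ClpD-OE and at 8.18 FPKM in WT replicate 2, near FES1A, while in WT replicate 1 it was at 42.7 FPKM, above ROF1. Together the 10 genes took 0.0614% and 0.0550% of all counts in ClpD-OE, against 0.0592% and 0.0415% in WT.

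In every gene but HOP1 the WT libraries differed from each other, on the log2 scale, by more than the genotypes did. WT replicate 1 exceeded WT replicate 2 in 9 of 10 genes, where 50.3% of tested genes did so, with a median log2 difference (replicate 2 minus replicate 1) of -0.67 beside -0.0017 over all tested genes. In normalized CPM the excess was 5.26-fold for MBF1C, 3.79-fold for HOP3, 3.38-fold for ROF2, 2.34-fold for BAG6 and 1.79-fold for FES1A. Among all tested genes, 99.8% had a smaller difference between the WT libraries than MBF1C, and 99.6% a smaller one than HOP3 or than ROF2. The remaining genes differed less in WT, by 1.45-fold for ATJ2, 1.37-fold for ROF1, 1.25-fold for ATJ3 and 1.19-fold for HOP2. HOP1 alone ran the other way, with WT replicate 2 1.09-fold above replicate 1.

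The ClpD-OE libraries showed the same direction with smaller steps. Replicate 1 exceeded replicate 2 in 8 of 10 genes, where 49.8% of tested genes did so, with a median log2 difference of -0.13 beside 0.0011 over all tested genes. The largest were ROF2 (1.69-fold), HOP3 (1.67-fold) and MBF1C (1.45-fold). FES1A differed 1.07-fold in ClpD-OE, and BAG6 and HOP1 were slightly higher in replicate 2. In both genotypes together, 8 of 10 genes were higher in replicate 1, where 28.7% of tested genes were. The labels give the replicate numbers with no meaning beyond a count, and the cause of these differences was not tested.

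**Figure D3:**
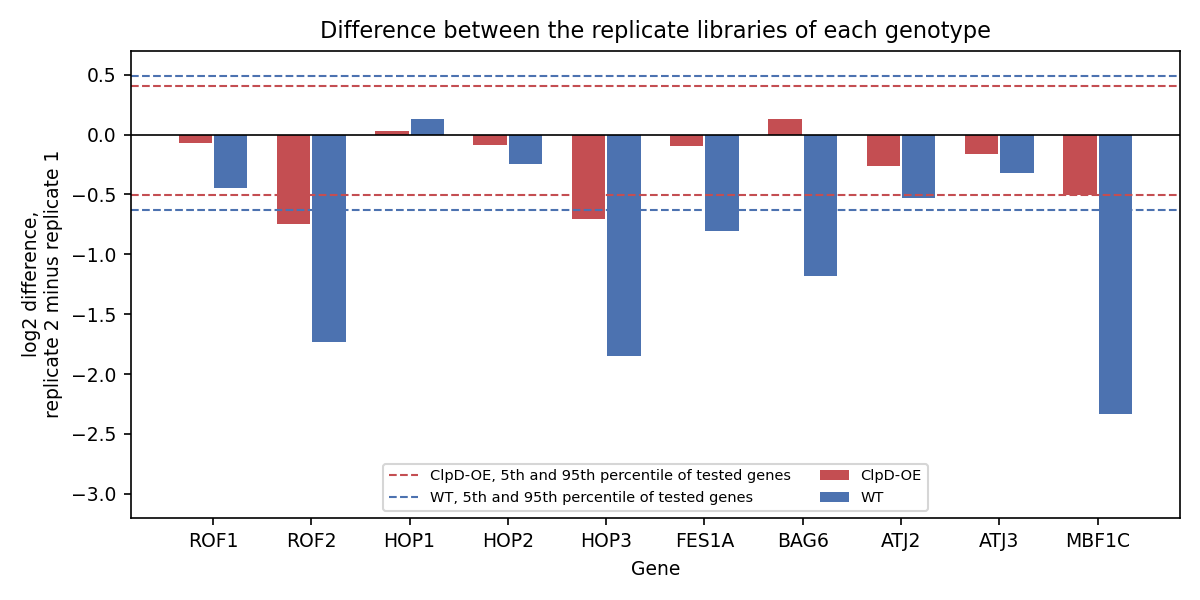
The log2 difference of replicate 2 minus replicate 1 in normalized CPM for each gene, with ClpD-OE bars left of WT bars and dashed lines at the 5th and 95th percentile of all tested genes in each genotype. The WT bars of ROF2, HOP3, FES1A, BAG6 and MBF1C pass below the 5th percentile for WT (-0.63), and those of HOP1 point the other way.

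MBF1C had the largest range over the libraries, 2.76 on the log2 scale. By Euclidean distance between log2 CPM profiles centred over the 4 libraries, its nearest genes among 14249 compared were KCS2 (AT1G04220), NF-YC2 (AT1G56170) and HSP101 (AT1G74310), with 4 libraries as the only points. KCS2, annotated as a 3-ketoacyl-CoA synthase, had 93 and 63 counts in ClpD-OE, against 378 and 73 in WT. NF-YC2, annotated as a subunit of nuclear factor Y, had 59 and 36 counts in ClpD-OE, against 293 and 52 in WT. HSP101, the cytosolic disaggregase that acts with HSP70, had 321 and 218 counts in ClpD-OE, against 1038 and 205 in WT. These genes were picked for a profile like that of MBF1C, so their high value in WT replicate 1 follows from the choice and adds no support. Without WT replicate 1 the log2 fold change was -0.18 for KCS2, -0.40 for NF-YC2 and 0.12 for HSP101. Against WT replicate 1 alone it was -2.68 for KCS2, -3.02 for NF-YC2 and -2.35 for HSP101.

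Heat shock factors bind heat shock elements, which are inverted repeats of GAA separated by a pair of bases. The sequence next to the annotated transcript start was therefore searched for GAANNTTC and TTCNNGAA, which read the same on both strands and can overlap each other by one TTC or GAA. In windows of 250 bases before to 50 bases from the start on (300 bases, RefSeq annotation of assembly TAIR10.1), 5 of the 10 genes held at least 1 match, where 19.3% of 27443 protein-coding genes did. Those were ROF1, HOP3, FES1A, BAG6 and ATJ2. HOP3 held 3 matches, and 2.46% of protein-coding genes held 2 or more. Over every annotated transcript start, 6 of 10 genes held a match, where 22.7% of 27444 protein-coding genes did, MBF1C being the addition.

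Upstream sequence is shown for the 5 genes whose WT libraries differed by more than 1.5-fold, since these carried the variation above. Matches fell on both sides of that cut, as ROF1 and ATJ2 below it held a match and ROF2 above it held none. For MBF1C, ROF2, FES1A and BAG6 the last 100 bases before the first annotated start are given 5′ to 3′ on the gene's strand, in TAIR10.1 at chr3:8918167-8918266, chr5:19693846-19693945, chr3:2870870-2870969 and chr2:18986033-18986132. ROF2 lies on the minus strand and the others on the plus strand, and capitals mark a match.
MBF1C: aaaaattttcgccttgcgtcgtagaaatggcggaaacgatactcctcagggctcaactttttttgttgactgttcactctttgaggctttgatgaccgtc
ROF2: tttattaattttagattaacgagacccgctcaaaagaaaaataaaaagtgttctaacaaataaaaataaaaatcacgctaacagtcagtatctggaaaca
FES1A: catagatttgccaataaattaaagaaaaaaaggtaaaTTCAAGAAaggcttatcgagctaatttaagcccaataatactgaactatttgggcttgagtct
BAG6: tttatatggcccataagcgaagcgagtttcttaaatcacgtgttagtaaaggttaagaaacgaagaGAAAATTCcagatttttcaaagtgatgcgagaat
The matches lie 63 to 56 bases before the start in FES1A and 34 to 27 bases before it in BAG6, and these stretches of MBF1C and ROF2 hold none.

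For HOP3 (minus strand) and for the later start of MBF1C (plus strand), 30 bases around each match are given, in TAIR10.1 at chr4:7341350-7341379, chr4:7341318-7341347 and chr3:8918569-8918598, with the match in capitals.
HOP3 across the start: cggctacaaaaGAACATTCtcgacatacac
HOP3 after the start: aaaaattcGAAATTTCGAGAActctcttgt
MBF1C before its later start: atcatctctaaGAACGTTCcagagacgaaa
The first HOP3 match begins 5 bases before the start, and the next is a run of 3 alternating units from base 25 to base 37 of the transcript, an arrangement that 0.481% of protein-coding genes held in their windows. The later MBF1C start lies 412 bases downstream of the first, and its match spans 99 to 92 bases before it. FES1A also has a later start, 75 bases downstream of its first, with a further match from base 27 to base 34 that is not shown. A match describes letters only, and no binding was measured.

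Genes that act with the group were read from the same fit. Of 15 HSP70, HSP110, HSP90 and HSP101 genes, 14 were tested and 0 were called by edgeR or DESeq2, which called 8.19% and 11.8% of tested genes. At an unadjusted p under 0.05 there were 2 by edgeR and 1 by DESeq2, where 28.2% and 21.6% of tested genes were. The median log2 fold change of the 14 was 0.052, beside 0.0011 over all tested genes. Those with the smallest p were HSP70-14, of the HSP110 type, with 130 and 132 CPM in ClpD-OE, against 109 and 107 CPM in WT (log2 fold change 0.27, edgeR adjusted p = 0.0913), and HSP90.4, with 22.2 and 24.4 CPM in ClpD-OE, against 18.8 and 18.9 CPM in WT (0.31, edgeR adjusted p = 0.141). WT replicate 1 exceeded replicate 2 in 12 of the 14, where 50.3% of tested genes did so. The median of the 14 was 0.36 without WT replicate 1 and -0.11 without WT replicate 2.

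Of 25 other co-chaperones, 24 were tested and 0 were called by edgeR, where it called 8.19% of tested genes. DESeq2 called 1 lower (BAG1), where it called 6.43% of tested genes lower. At an unadjusted p under 0.05 there were 7 by edgeR and 5 by DESeq2, near the 28.2% and 21.6% of all tested genes. The median log2 fold change of the 24 was -0.12, with 9 above and 15 below 0. Both ClpD-OE libraries lay below both WT libraries in 9 and above them in 4, where 29.5% and 30.5% of tested genes did. The smallest p were those of P23-1 and BAG3, which ran in opposite directions. P23-1, which encodes an HSP90 co-chaperone, had 143 and 140 CPM in ClpD-OE, against 104 and 117 CPM in WT (log2 fold change 0.36, edgeR adjusted p = 0.0782, with 0.27 and adjusted p = 0.195 without WT replicate 1, and 0.44 and adjusted p = 0.0428 without WT replicate 2). For BAG3 the values were 36.6 and 38.2 CPM in ClpD-OE, against 51.5 and 45.9 CPM in WT (-0.38, edgeR adjusted p = 0.0787). Of the 7 genes with an unadjusted edgeR p under 0.05, all but P23-1 were lower in ClpD-OE. Among these 24 genes WT replicate 1 exceeded replicate 2 in 13, close to the 50.3% of all tested genes. The other MBF1 genes, MBF1A and MBF1B, are not known as heat-induced and lacked the WT replicate 1 excess of MBF1C. MBF1A had 73.5 and 72.7 CPM in ClpD-OE, against 59.4 and 63.7 CPM in WT (0.25, edgeR adjusted p = 0.128). MBF1B had 111 and 122 CPM in ClpD-OE, against 72.6 and 93.1 CPM in WT (0.49, edgeR adjusted p = 0.0977, with 0.32 and adjusted p = 0.199 without WT replicate 1, and 0.68 and adjusted p = 0.0251 without WT replicate 2).

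Of 12 listed genes, heat shock factors and DREB2A, 11 were tested, and 1 was called higher and 1 lower, at background shares of 4.29% and 3.91%. HSFA3, a factor of the drought and heat cascade, rose to 18.1 and 14.8 CPM in ClpD-OE, against 8.64 and 8.67 CPM in WT (log2 fold change 0.93, edgeR adjusted p = 0.0312). HSFB2A, a class B factor, fell to 20.1 and 22.9 CPM in ClpD-OE, against 40.4 and 33.6 CPM in WT (-0.78, edgeR adjusted p = 0.0364). Without WT replicate 2 both stayed under the threshold, HSFA3 at 0.93 and HSFB2A at -0.91 (edgeR adjusted p = 0.0432 and 0.0200). Without WT replicate 1 HSFA3 was at 0.92 and HSFB2A at -0.65, and neither passed (edgeR adjusted p = 0.0843 and 0.0830), nor did they without ClpD-OE replicate 1 (0.172 and 0.191) or replicate 2 (0.190 and 0.195), where no gene of the table was called. HSFA2, the heat-induced factor linked to the ROF proteins, had 7.27 and 2.87 CPM in ClpD-OE, against 46.1 and 2.52 CPM in WT, so WT replicate 1 stood alone here as well (log2 fold change -2.25, SE 1.24, edgeR adjusted p = 0.300). It was 1.01 without WT replicate 1 and -3.18 without WT replicate 2 (edgeR adjusted p = 0.457 and 0.0202).

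**Figure D4:**
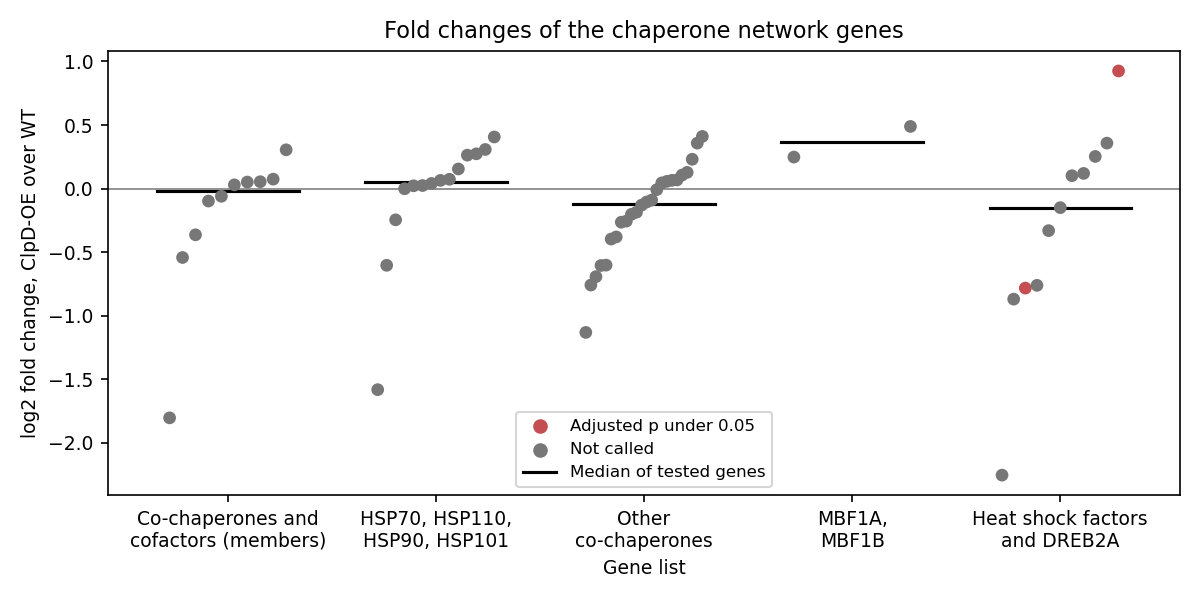
The log2 fold change of ClpD-OE over WT (vertical axis) for each tested gene of the 10 co-chaperones and cofactors and of the 4 other lists, sorted within a list, with red points for genes called at an adjusted p under 0.05, grey points for the others and a line at each list's median. The red points are HSFA3 and HSFB2A, and MBF1C is the lowest point of its list.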

How the data were processed

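The submitters' processing notes name TAIR10 and, with no role or order, DESeq2, RSEM, HISAT2, StringTie 1.3.1, Bowtie2 2.2.8 and fastp 0.18.0. Per the labels, oligo(dT)-selected RNA was made into NEBNext Ultra libraries. The authors deposited estimated counts per gene, not normalized and already whole numbers, with FPKM values and their own log2 fold change, p-value and adjusted p-value, by a test that the file headers do not name. The deposited log2 fold change compares mean FPKM values of the genotypes.

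Genotype was tested over all genes with edgeR 4.0.16 in R 4.3.3 (TMM, filterByExpr, glmQLFit, glmQLFTest, Benjamini-Hochberg adjustment, threshold 0.05), and with DESeq2 1.42.0 as an alternative. The edgeR method was checked on simulated counts that held no outlying library and no shared replicate effect, so that check does not cover such a case. Intervals use the SE and the fit's degrees of freedom. Normalized CPM use TMM-scaled totals, and log2 CPM a pseudocount of 0.5. Replicates differed by more than sampling noise, at a chi-square per degree of freedom of 10.2 in ClpD-OE and 18.6 in WT. With 2 libraries per group precision is low.

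Sequences come from RefSeq's TAIR10.1, in which all 31346 loci were found. The deposited table holds no coordinates, and the authors' build TAIR10 differs from it in name. Coding sequences were aligned with Biopython 1.88. Use of strand in counting is not given. HOP2, HOP3, FES1A, ATJ2 and MBF1C overlap genes on the opposite strand, by 22 to 371 bases in each overlap. Reads from those shared stretches alone may not be told apart.

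The 10 genes and all lists were chosen with earlier results of these data known. The genes named are CLPD, the 10 members, HSFA2, the called genes of each other list (otherwise the 2 with the smallest p), and the 3 genes with the profile nearest to that of the member with the widest range. The BAG genes other than BAG3 and BAG6, AT2G20560, HSFB2B and the neighbours of MBF1C and HOP3 were named after their values were seen.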

Additional observations from a re-analysis of the deposited data

How the results depend on the processing

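Genes called different numbered 1552 over the whole table (812 higher, 740 lower), 3272 with library totals (2695 higher, 577 lower), 3512 with a replicate block and between 0 and 2781 when 1 library was left out. Without either ClpD-OE library 0 genes were called by edgeR, so those fits say nothing on single genes. Of the 10 co-chaperones and cofactors, 0 were called, with 1 under library totals (HOP1), 1 with the replicate block and 0 to 2 without 1 library. The other pathway lists held 14, 24, 2 and 11 tested genes. Of these, 2 were called, where 8.19% of all tested genes were. Under library totals 9 were called, where 17.3% of tested genes were, and with the replicate block 9, where 18.5% were. With library totals the log2 fold change was 0.14 for ROF2 and 0.17 for ATJ2, both reversed in sign, as the median of all tested genes moved by 0.22. Replicate numbers are shared by the genotypes, and same-numbered libraries deviated together with a correlation of 0.29 across genes, but the labels state no pairing. With the replicate block ROF2 was at 0.071 and MBF1C, at -1.49, was called lower (edgeR adjusted p = 0.0445), where 9.95% of tested genes were. Under that block P23-1 (0.0431), MBF1B (0.0164), BAG3 (0.0470), KCS2 (0.0424) and NF-YC2 (0.0227) were also under the threshold, as edgeR adjusted p. Leaving out 1 library moved the log2 fold change between -0.15 and 0.29 for ROF1, -0.73 and 1.03 for ROF2, -0.092 and 0.16 for HOP2, -1.21 and 0.71 for HOP3, -0.31 and 0.53 for FES1A, -0.86 and 0.37 for BAG6, -0.31 and 0.23 for ATJ2, -0.077 and 0.24 for ATJ3, -3.18 and 1.01 for HSFA2, and -2.35 and 0.12 for HSP101. For MBF1C it lay between -2.56 and -0.16 and for HOP1 between 0.24 and 0.37. DESeq2 size factors, DESeq2 itself and the other filters on low counts changed no direction and no call among the 23 genes named by rule. Apart from the settings printed here, the cause of each change was not tested.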

Other observations

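Values of other genes for BAG proteins, which contact HSP70, are given as a description, since they were picked after being seen. Over BAG1, BAG2, BAG3, BAG4, BAG5 and BAG7 the edgeR adjusted p lay between 0.0787 for BAG3 and 0.353 for BAG4, and DESeq2 called BAG1 (adjusted p = 0.0366). BAG1 had 65.3 and 69.3 CPM in ClpD-OE, against 119 and 84.8 CPM in WT (log2 fold change -0.60, with -0.34 and edgeR adjusted p = 0.160 without WT replicate 1, and -0.83 and edgeR adjusted p = 0.0129 without WT replicate 2). BAG3 had 36.6 and 38.2 CPM in ClpD-OE, against 51.5 and 45.9 CPM in WT (-0.38). BAG5 had 3.04 and 2.54 CPM in ClpD-OE, against 4.13 and 4.36 CPM in WT (-0.61). BAG2 had 6.19 and 9.40 CPM in ClpD-OE, against 14.2 and 11.1 CPM in WT (-0.69). BAG7 had 115 and 113 CPM in ClpD-OE, against 127 and 133 CPM in WT (-0.19). BAG4 ran the other way, at 22.5 and 22.3 CPM in ClpD-OE, against 21.3 and 16.9 CPM in WT (0.23). On the authors' FPKM scale BAG7 overlapped, at 61.4 and 61.1 in ClpD-OE, against 56.9 and 62.4 in WT, as did BAG2.

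Among the J-domain genes of the other co-chaperones, AT2G20560 had 277 and 167 counts in ClpD-OE, against 614 and 137 counts in WT, with WT replicate 1 highest as for MBF1C (log2 fold change -1.13, edgeR adjusted p = 0.370). Without WT replicate 1 AT2G20560 was at 0.42 (edgeR adjusted p = 0.569), and without WT replicate 2 at -1.87 (edgeR adjusted p = 0.0234, against a single WT library). HSFB2B had 300 and 288 counts in ClpD-OE, against 572 and 267 counts in WT (-0.87, edgeR adjusted p = 0.222). Without WT replicate 1 HSFB2B was at -0.13 (edgeR adjusted p = 0.669), and without WT replicate 2 at -1.36 (edgeR adjusted p = 0.00846, against a single WT library). Of the opposite-strand genes that overlap MBF1C, those with counts were AT3G24495 and AT3G24503, and neither was highest in WT replicate 1, with 251 and 221 counts in ClpD-OE and 178 and 193 in WT for AT3G24495, and 4495 and 4600 in ClpD-OE and 2982 and 3180 in WT for AT3G24503. The gene that overlaps HOP3, AT4G12390, had 311 and 432 counts in ClpD-OE, against 233 and 351 in WT, so that replicate 2 was higher in both genotypes.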
